A study of Mus musculus with 20 samples.

Results

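The 33 genes that carry pyruvate into the mitochondrion and turn the tricarboxylic acid (TCA) cycle were examined in the hippocampus. They were chosen by name, as the pyruvate carriers, pyruvate dehydrogenase with its kinases and phosphatases, pyruvate carboxylase, the cycle enzymes other than complex II, and the malic enzymes. They are 33 of 33119 genes in the count table, and all 33 passed the filter on low counts, which left 21724 genes for testing.

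RNA was sequenced from the hippocampus of 20 mice aged 16 months, 5 of each sex and genotype. The human APOE3 allele (hAPOE3) was carried by the females numbered S144 to S148 and the males S154 to S158, and the APOE4 allele (hAPOE4) by the females S164 to S168 and the males S174 to S178. All were homozygous targeted replacement mice on the C57BL/6 background, obtained from Taconic. In these animals the human APOE allele stands in place of the mouse gene in every cell, so each group carries a human allele and there is no group with mouse Apoe. The samples are bulk tissue, in which fewer cells of a type and less RNA per cell cannot be told apart.

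Pyruvate made from glucose crosses the inner mitochondrial membrane through a carrier built of MPC1 and MPC2. Pyruvate dehydrogenase then turns it into acetyl-CoA, and 4 kinases (PDK1 to PDK4) switch that complex off by phosphorylation while a pair of phosphatases switch it on again. The cycle oxidizes the acetyl group and feeds electrons to the respiratory chain, on which neurons depend heavily. Carboxylase and malic enzymes link pyruvate to the cycle without passing through acetyl-CoA.

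Some libraries stood apart. Total counts per mouse ran from 35778879 to 52520279, and all 10 markers of hippocampal neurons were found in each group, summing to between 827 and 1649 CPM (counts scaled to 1000000 per library). The 12 choroid plexus markers summed to 273 to 9559 CPM and were unevenly spread over the sexes. Their median sum was 321 CPM in hAPOE3 males and 411 in hAPOE4 males, against 3298 in hAPOE3 females and 6795 in hAPOE4 females. Mice S158, S176 and S178 had 615 to 759 CPM over 8 thalamus markers, against 140.1 to 212 CPM in the other 17 mice, and their 3 sums of hippocampal markers were the lowest. The oocyte markers summed to 93.5 to 184 CPM in the hAPOE4 males S175 to S178 and to 1.91 to 3.43 CPM in the other 16 mice. For the genes described by name, a value that changed by more than 1.5 times without S176 or without these 3 mice is given both ways.

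Differences were tested with edgeR's quasi-likelihood test on all 21724 genes, and a gene was called at an adjusted p (Benjamini-Hochberg) under 0.05. In the comparison of hAPOE4 with hAPOE3 over both sexes, 1 of 33 members was called, Pdk4, which was higher in hAPOE4. In that comparison 2.45% of all genes tested were called, 0.704% as higher. In each of the other comparisons 0 of 33 members were called.

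Upstream sequence is shown for the member that was called, Pdk4, and for the member with the next smallest p in the same comparison, Ogdh. Each line is taken from the 250 bases before the RefSeq transcription start, 5′ to 3′ on the gene's strand, in build GRCm38.p6. For Pdk4 the 31 bases nearest that start were left out because they lie inside the gene as GENCODE places it. Capitals mark CCAAT read on the opposite strand (ATTGG) in Pdk4, and the cyclic AMP response element TGACGTCA in Ogdh. The windows are chr6:5496310-5496528 on the minus strand for Pdk4 and chr11:6291347-6291596 on the plus strand for Ogdh (the first of 6 listed starts).
Pdk4: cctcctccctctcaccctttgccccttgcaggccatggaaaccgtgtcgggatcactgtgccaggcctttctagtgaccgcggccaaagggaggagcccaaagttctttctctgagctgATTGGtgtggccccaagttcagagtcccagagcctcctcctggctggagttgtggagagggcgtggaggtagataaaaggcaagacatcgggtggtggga
Ogdh: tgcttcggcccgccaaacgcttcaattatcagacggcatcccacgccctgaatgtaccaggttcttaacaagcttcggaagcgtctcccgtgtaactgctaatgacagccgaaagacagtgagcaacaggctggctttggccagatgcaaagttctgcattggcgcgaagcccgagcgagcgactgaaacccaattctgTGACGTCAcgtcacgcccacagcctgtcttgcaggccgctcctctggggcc

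The RefSeq promoter table (300 bases, from 250 before to 50 after each start) held 41 windows of 30 of the 33 members, and 6 short motifs were searched in it on both strands. A gene was counted once, whatever its number of windows, among the members and among all 27025 genes of the table. The element TGACGTCA was found in 2 of 30 members, Mdh2 and Ogdh, against 2.03% of all genes. The E-box CACGTG was found in 5 members, Ogdh, Ogdhl, Pcx, Pdk2 and Pdp2, against 8.09% of all genes. The motifs TNAAGGTCA of oestrogen-related receptors and GTAAACA of FOXO factors and the palindromic NRF1 motif were found in 0 of 30 members, against 1.43%, 4.05% and 1.07% of all genes. CCAAT was found in 19 of 30 members, Pdk4 included, against 41.1% of all genes. GTAAACA and CCAAT were added to the search after the Pdk4 window had been seen. In the 2 printed windows no match of one motif overlapped a match of another.

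**Figure D1:**
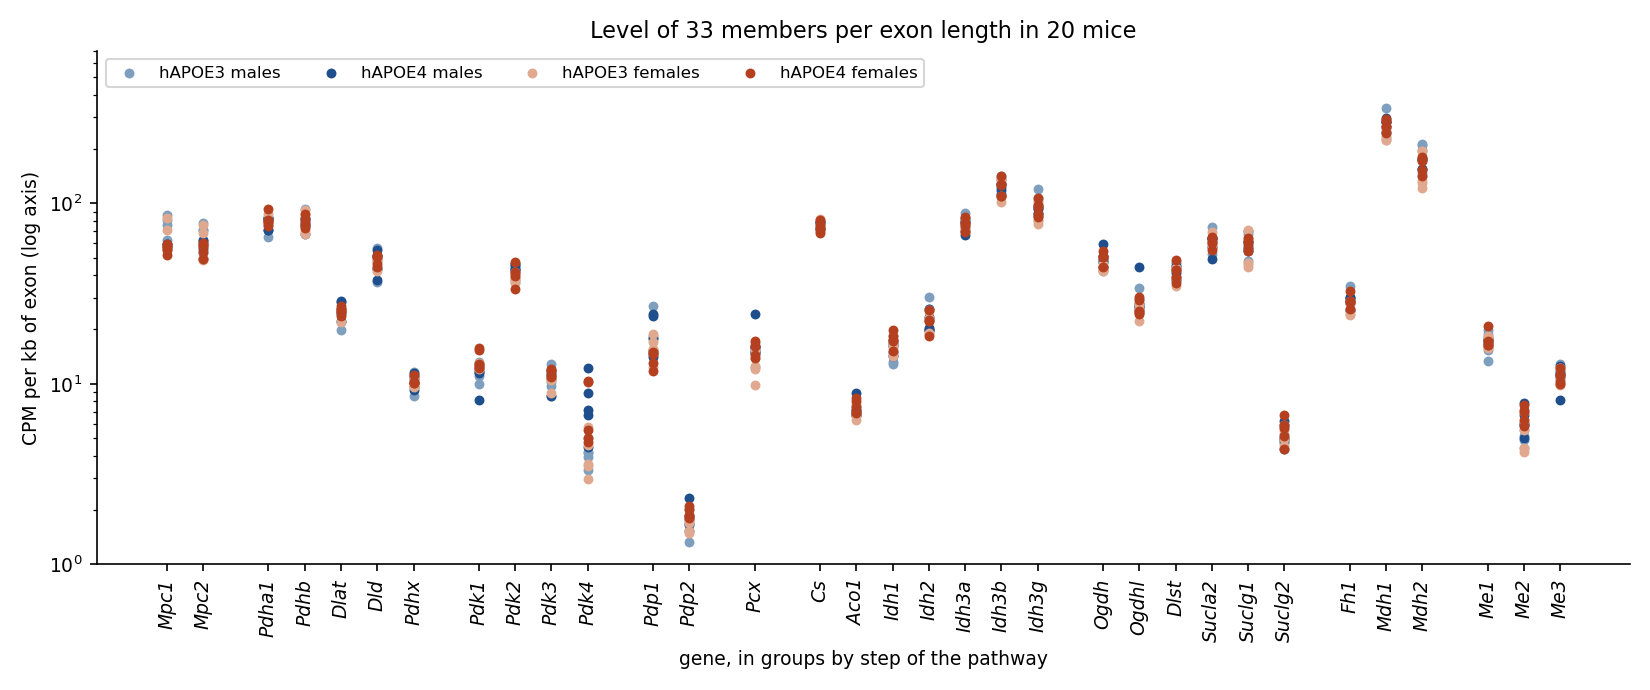
Level of each of the 33 members in CPM per kb of exon (log axis), 1 point per mouse coloured by group, with genes grouped by their step. Mdh1 lies at the top and Pdp2 at the bottom, and Pdk4 has the widest spread, from 2.98 to 12.3 CPM per kb.

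The levels of the members were compared per kb of exon, as CPM divided by the summed exon length. The malate dehydrogenases stood highest: Mdh1, the cytosolic enzyme, had 266 ± 28.3 CPM per kb (SD, n = 20) and Mdh2, the mitochondrial enzyme, had 167.3 ± 26.9. The NAD-dependent isocitrate dehydrogenase subunits Idh3b and Idh3g followed at 123 ± 12.7 and 93.4 ± 10.8. Pdha1 and Pdhb, the subunits of the first enzyme of pyruvate dehydrogenase, lay at 79.2 ± 6.08 and 79.0 ± 7.26, and Idh3a and citrate synthase (Cs) at 76.2 ± 5.72 and 75.9 ± 3.89, so these 4 neighbours did not differ beyond their spread. The carrier genes Mpc1 (63.0 ± 10.2) and Mpc2 (59.5 ± 9.23) and the succinyl-CoA ligase genes Sucla2 (61.0 ± 5.63) and Suclg1 (58.6 ± 8.15) were likewise within 1 SD of each other.

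Among the kinases Pdk2 was the highest, at 41.2 ± 3.92 CPM per kb, followed by Pdk1 at 12.3 ± 1.61, Pdk3 at 10.8 ± 1.175 and Pdk4 at 5.82 ± 2.65. Pdk1 and Pdk3 overlapped within their spread. Of the phosphatases, Pdp1 stood at 16.8 ± 4.03 and Pdp2, the lowest of all 33 members, at 1.79 ± 0.229. The succinyl-CoA ligase that makes ATP (Sucla2) was far above the one that makes GTP (Suclg2, 5.29 ± 0.653). Of the malic enzymes the cytosolic Me1 was highest (17.2 ± 1.64), then the mitochondrial Me3 (11.1 ± 1.12) and Me2 (5.93 ± 1.07).

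The members differed in how much they moved between mice. Citrate synthase was the steadiest, with a highest level 1.19 times the lowest over the 20 mice. Pdk4 varied most, with a highest level 4.13 times the lowest, then Pcx at 2.45 and Pdp1 at 2.28 times.

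Whether the APOE allele changed the routes into the cycle was asked first in each sex and then over both sexes. The females' and the males' comparisons use separate mice. The comparison over both sexes is the mean of the other 2 and adds no mice of its own.

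Pdk4, the kinase gene known to be induced by fasting and fatty acids, is at chr6:5483351-5496309 on the minus strand. In hAPOE3 males its level was 13.6, 17.5, 14.6, 11.6 and 14.4 CPM (S154 to S158), and in hAPOE4 males it was 24.8, 23.4, 42.9, 30.8 and 15.5 CPM (S174 to S178). In hAPOE3 females it was 16.0, 12.6, 20.04, 10.4 and 12.2 CPM (S144 to S148), and in hAPOE4 females it was 35.9, 16.7, 35.9, 17.5 and 19.3 CPM (S164 to S168). Among males, 4 of 5 hAPOE4 mice lay above every hAPOE3 mouse and S178 lay among them. Among females, S164 and S166 lay far above the hAPOE3 mice, and the other 3 hAPOE4 mice lay inside the hAPOE3 range.

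Over both sexes Pdk4 was 1.84 times as high in hAPOE4 (26.3 ± 9.58 CPM, SD, n = 10) as in hAPOE3 (14.3 ± 2.92, n = 10), a log2 fold change of 0.88 ± 0.18 (SE) with an adjusted p of 0.0124 by edgeR. In males alone the log2 fold change was 0.94 ± 0.26 (adjusted p = 0.161 by edgeR), and in females alone it was 0.81 ± 0.26 (adjusted p = 0.197 by edgeR). The difference between the sexes in this effect was -0.12 ± 0.36, with an adjusted p of 1.00, and without 1 mouse it ran from -0.29 (S164) to 0.10 (S176). It was -0.04 without S158, S176 and S178. Without S158, S176 and S178 the value over both sexes was 0.84, with an adjusted p of 0.0247 by edgeR.

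The call of Pdk4 was lost with some marker covariates and kept with others. Each covariate was a score, the mean of the markers' centred log2 levels. With the oocyte score the log2 fold change over both sexes was 0.82 and its adjusted p by edgeR was 0.287, and with the astrocyte score these were 0.68 and 0.155. The call was kept with the scores of choroid plexus (0.84, adjusted p = 0.0187), thalamus (0.87, 0.0138), endothelium (0.91, 0.0197) and nuclear oxidative phosphorylation (0.79, 0.0277). The 10 astrocyte markers, all of them detected, summed to 3022 to 4835 CPM in hAPOE3 males, 3606 to 4881 in hAPOE4 males, 3354 to 5218 in hAPOE3 females and 3983 to 4770 in hAPOE4 females. The mean astrocyte score, which was the covariate, was higher with hAPOE4 in both sexes. It was -0.053 with hAPOE3 and 0.044 with hAPOE4 in males, and -0.044 and 0.053 in females. The ranges of the groups overlapped. The mean oocyte score was 2.58 in hAPOE4 males and -0.91 to -0.76 in the other groups. In males that score and genotype could therefore hardly be told apart. Of the 16 oocyte markers 7 passed the filter on low counts, and in the females, where their sums ran from 1.91 to 2.86 CPM, the log2 fold change of Pdk4 was 0.81 as given above. The part of astrocytes or of the oocyte transcripts in the Pdk4 difference was not tested further.

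The other kinases gave smaller values. Over both sexes the log2 fold changes of the 4 kinases ran from 0.04 to 0.88 with a median of 0.08, and Pdk4 was the only one called. The ratio of Pdk4 to Pdk2 counts was 0.152 with hAPOE3 and 0.282 with hAPOE4 in males, and 0.166 and 0.284 in females. Its log2 form was -2.72 ± 0.11 and -1.92 ± 0.59 in males (SD, n = 5) and -2.64 ± 0.41 and -1.94 ± 0.67 in females. The mean ratio was thus higher in hAPOE4 by more than the hAPOE3 SD in both sexes, but the ranges of the genotypes overlapped. In log2 form these were -2.82 to -2.58 and -2.75 to -1.14 in males, and -3.17 to -2.08 and -2.47 to -1.06 in females. The ratio was more uneven among the hAPOE4 mice, and it rests on the same Pdk4 levels as above.

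**Figure D2:**
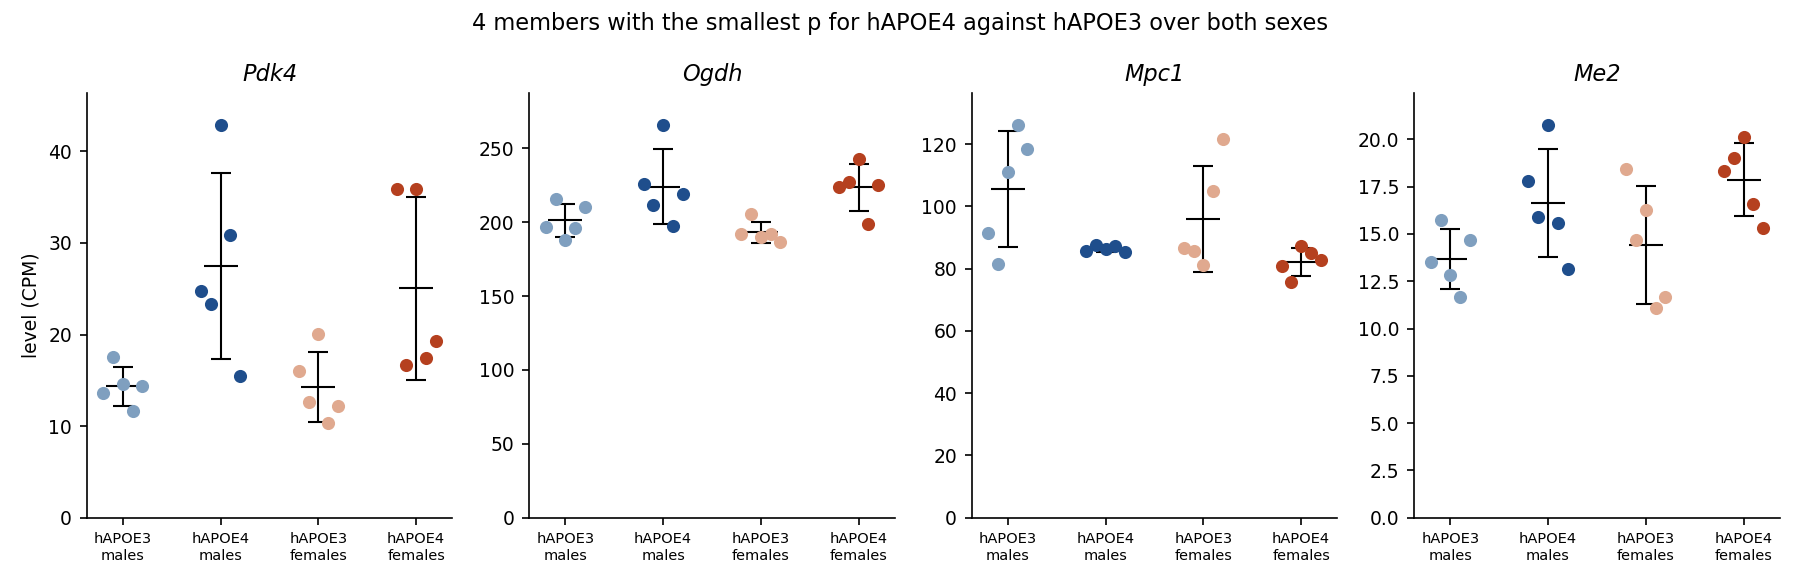
Level in CPM of Pdk4, Ogdh, Mpc1 and Me2 in each mouse (points) with the mean and SD of the 5 mice of a group (bars). For Pdk4, 6 of 10 hAPOE4 mice lie above the highest hAPOE3 mouse at 20.04 CPM, and for Mpc1 the 10 hAPOE4 mice lie between 75.6 and 87.7 CPM.

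Ogdh, Mpc1 and Me2 had the next smallest p over both sexes. They were not called, and they are described there because of their values. Ogdh encodes the first subunit of the oxoglutarate dehydrogenase complex. Its level was 196, 215, 188, 196 and 210.2 CPM in hAPOE3 males, 226, 212, 266, 198 and 219 CPM in hAPOE4 males, 192, 205, 189.7, 192 and 187 CPM in hAPOE3 females, and 224, 227, 243, 199 and 225 CPM in hAPOE4 females. In females 4 of 5 hAPOE4 mice lay above every hAPOE3 mouse, and in both sexes the groups overlapped by 1 or more mice. The log2 fold change was 0.15 ± 0.08 in males, 0.21 ± 0.08 in females and 0.18 ± 0.06 over both (adjusted p = 0.562, 0.321 and 0.0870 by edgeR). Without S176, the highest male, the value in males was 0.09, and without S158, S176 and S178 it was 0.08. DESeq2 gave an adjusted p of 0.0221 over both sexes. Of the edgeR fits without 1 mouse 0 called Ogdh there (adjusted p 0.0614 to 0.157). Over 32 alternative fits the value over both sexes ran from 0.15 to 0.20.

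Mpc1, a subunit of the pyruvate carrier, was lower in hAPOE4 without passing the test. Its level was 91.5, 81.6, 111, 126 and 118 CPM in hAPOE3 males, 85.6, 87.7, 86.3, 87.3 and 85.2 CPM in hAPOE4 males, 86.5, 85.6, 81.0, 105 and 122 CPM in hAPOE3 females, and 80.7, 75.6, 87.4, 84.9 and 82.8 CPM in hAPOE4 females. The hAPOE4 mice lay close together, whereas 5 of the 10 hAPOE3 mice lay above 100 CPM and the others lay among the hAPOE4 mice or just above. The log2 fold change was -0.29 ± 0.11 in males, -0.22 ± 0.11 in females and -0.26 ± 0.08 over both (adjusted p = 0.445, 0.540 and 0.0951 by edgeR). Without the hAPOE3 male S155, whose level was the lowest of its group, the value over both sexes was -0.30 and was called, with an adjusted p of 0.0355. Of the fits without 1 mouse this was the only 1 to call Mpc1 (adjusted p up to 0.188 by edgeR). Over 32 alternative fits the value over both sexes ran from -0.30 to -0.14. Without the hAPOE3 female S148, the highest of its group, the value in females was -0.12. Of the 1470 exon bases of Mpc1, 187 lie opposite exons of 4930506C21Rik, whose reads could be counted with it if strand was not used. The partner gene Mpc2 gave -0.12 ± 0.09 over both sexes, and -0.06 without S148.

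Me2, the mitochondrial malic enzyme that uses NAD, had 13.5, 15.7, 12.9, 11.7 and 14.7 CPM in hAPOE3 males, 17.8, 15.9, 20.8, 15.6 and 13.1 CPM in hAPOE4 males, 18.5, 14.7, 16.2, 11.1 and 11.7 CPM in hAPOE3 females, and 18.3, 19.01, 20.1, 16.6 and 15.3 CPM in hAPOE4 females. The groups overlapped in both sexes. The log2 fold change was 0.28 ± 0.14 in males, 0.31 ± 0.14 in females and 0.30 ± 0.10 over both (adjusted p = 0.559, 0.462 and 0.120 by edgeR). Without the hAPOE3 female S144, the highest of its group, the value over both sexes was 0.35 and was called, with an adjusted p of 0.0499. Of the fits without 1 mouse this was the only 1 to call Me2 (adjusted p up to 0.242 by edgeR). Over 32 alternative fits the value over both sexes ran from 0.17 to 0.35. The other malic enzymes gave 0.03 ± 0.07 (Me1) and -0.03 ± 0.07 (Me3) over both sexes.

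Pcx, the carboxylase that refills the cycle and is known to be expressed mainly in astrocytes, was the third member by p in females. Its level was 65.5, 53.0, 58.8, 51.4 and 42.0 CPM in hAPOE3 females and 73.7, 69.2, 59.0, 61.4 and 69.0 CPM in hAPOE4 females, and the groups overlapped. The log2 fold change was 0.30 ± 0.13 in females (adjusted p = 0.450 by edgeR), 0.20 ± 0.13 in males and 0.25 ± 0.09 over both sexes (adjusted p = 0.164). In males the levels were 63.2, 64.4, 66.4, 52.5 and 71.8 CPM in hAPOE3 and 67.8, 63.0, 103, 64.5 and 68.1 CPM in hAPOE4 mice. The high mouse was S176, and the male value was 0.05 without it, 0.07 without S158, S176 and S178, and 0.13 without S157, the lowest hAPOE3 male.

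**Figure D3:**
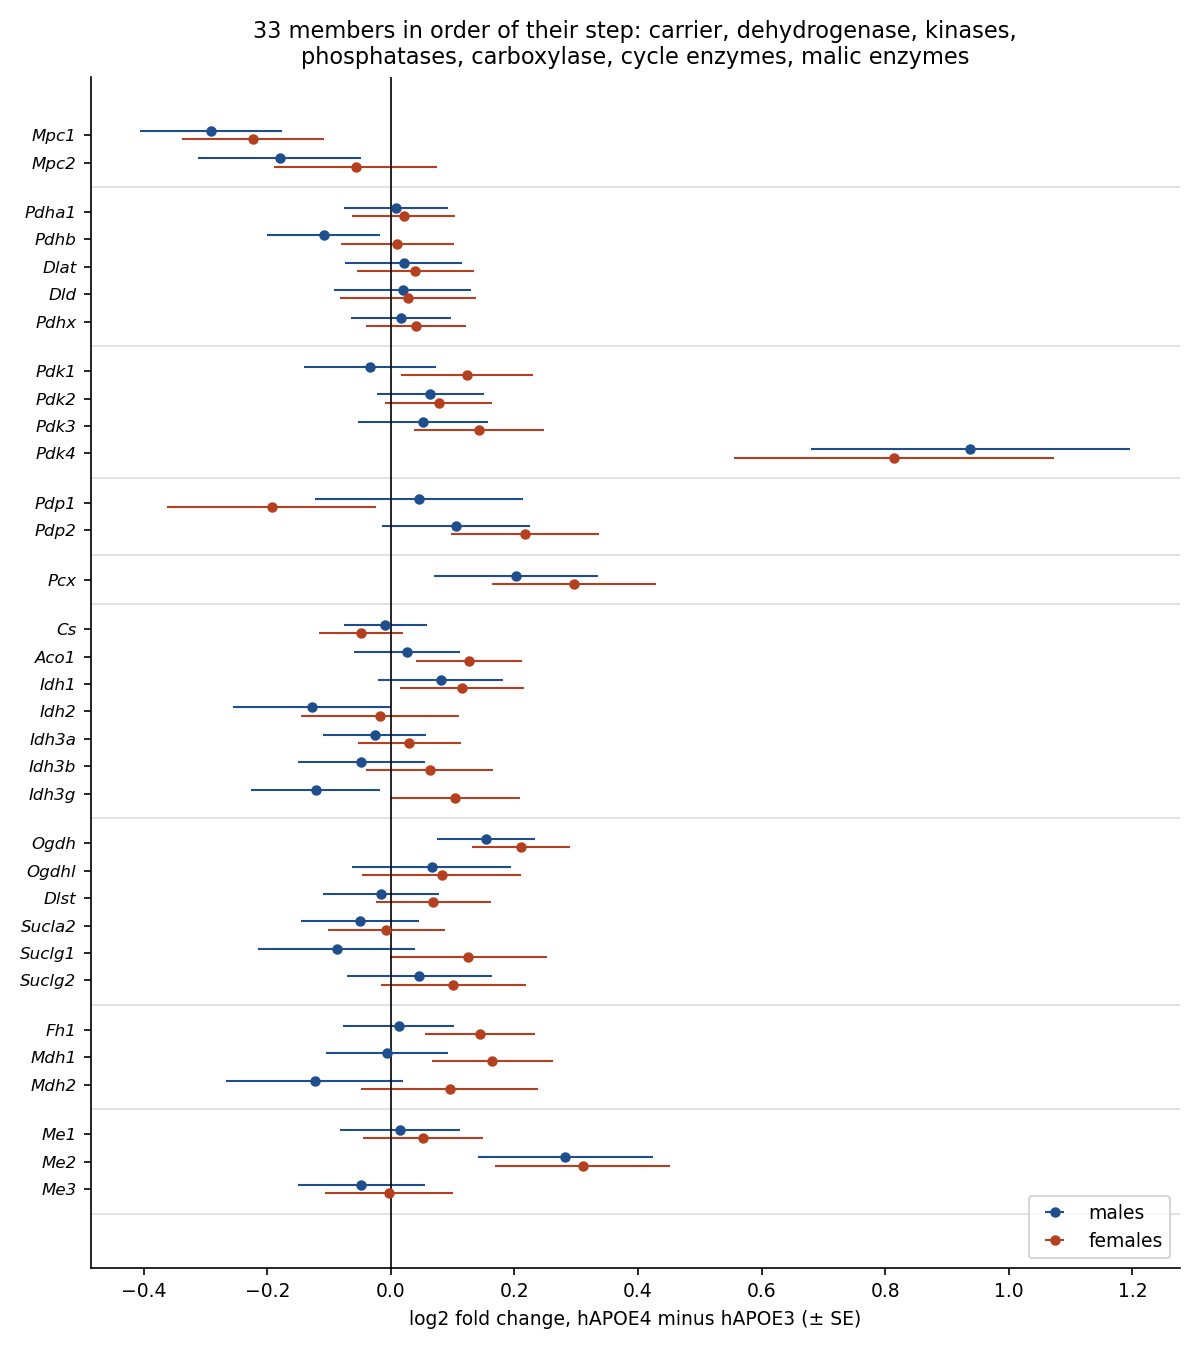
log2 fold change of hAPOE4 against hAPOE3 in males and females for each of the 33 members, with 1 SE on each side, in order of the pathway. Pdk4 stands at 0.94 and 0.81, and the other members lie between -0.29 and 0.31.

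By edgeR, 0 of 33 members were called in hAPOE4 against hAPOE3 males, where 0.621% of all genes were, and 2 of 33 (Pdk4 and Mpc1) had an unadjusted p under 0.05, against 9.06% of all genes. DESeq2 called 1 member there, Pdk4 (adjusted p = 0.0352), and limma on the deposited normalized counts called 0. In females 0 of 33 were called by each of the 3 tools, where edgeR called 0.667% of all genes, and 4 of 33 (Pdk4, Ogdh, Pcx and Me2) had an unadjusted p under 0.05, against 10.1% of all genes. Over both sexes 5 of 33 (Pdk4, Ogdh, Mpc1, Me2 and Pcx) had one, against 17.9% of all genes, a share near that of the members. In 0 of 33 members did hAPOE4 and hAPOE3 mice not overlap, where 1.44% of all genes did not overlap in males and 3.27% in females.

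Step by step the genotype differences were small outside the genes named above. The 5 pyruvate dehydrogenase genes (Pdha1, Pdhb, Dlat, Dld and Pdhx) lay between -0.05 and 0.03 over both sexes, with 0 called. The 7 genes from citrate to oxoglutarate (Cs, Aco1, Idh1, Idh2, Idh3a, Idh3b and Idh3g) lay between -0.07 and 0.10, again with 0 called. The fumarate and malate genes Fh1, Mdh1 and Mdh2 lay between -0.01 and 0.08. The median over the 33 members was 0.01 in males and 0.08 in females, beside medians of 0.0017 and 0.0013 over all genes. In females 26 of 33 members were higher in hAPOE4, against 50.3% of all genes. The members were measured in the same libraries and are not separate replicates.

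Females and males were compared within each genotype. By edgeR 0 of 33 members were called in hAPOE3 mice, where 0.0414% of all genes were, and 0 of 33 in hAPOE4 mice, where 0.437% were, and DESeq2 and limma also called 0. An unadjusted p under 0.05 was reached by 0 members in hAPOE3 (5.22% of all genes) and by 2 in hAPOE4 (5.80%), Pdp1 and Pdk1. In 0 of 33 members did the sexes not overlap, against 0.723% of all genes in either genotype.

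In hAPOE3 mice the median log2 fold change of the members was -0.05 and 7 of 33 were higher in females. Over all genes the median was 0.0030 and 50.5% were higher in females. Mdh1, Pcx, Idh3g and Mdh2 had the smallest p, with -0.19 ± 0.10, -0.23 ± 0.13, -0.18 ± 0.10 and -0.24 ± 0.14, each with an adjusted p of 0.805. Without the male S156, the highest of its group for both genes, Mdh1 gave -0.11 and Idh3g -0.10, and without the female S148 Pcx gave -0.16. Over 33 alternative fits Mdh1 ran from -0.25 to -0.08 and Pcx from -0.34 to -0.16. Idh3g ran from -0.24 to -0.04 and Mdh2 from -0.335 to -0.04. Mdh1, Idh3g and Mdh2 are among the genes of the order of hAPOE3 mice described below, whose 5 high mice included 3 males. hAPOE3 females had the lowest of the 4 group means in 18 of 33 members and the highest in 0, and hAPOE3 males had the highest in 14. These are orders of means whose differences did not pass the test.

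Pdp1, a phosphatase that reactivates pyruvate dehydrogenase, had the smallest p in the hAPOE4 sex comparison. Its level was 69.8, 63.8, 107, 81.0 and 109 CPM in hAPOE4 males and 65.9, 53.4, 58.6, 67.1 and 67.2 CPM in hAPOE4 females. The 2 highest males were S176 and S178, and the highest of the hAPOE3 males was S158 at 122 CPM, the 3 mice with the highest thalamus sums. The log2 fold change of females against males was -0.47 ± 0.17 in hAPOE4 and -0.35 ± 0.12 over both genotypes (adjusted p = 0.559 and 0.324 by edgeR). Without the 3 mice these were -0.18 and -0.12.

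**Figure D4:**
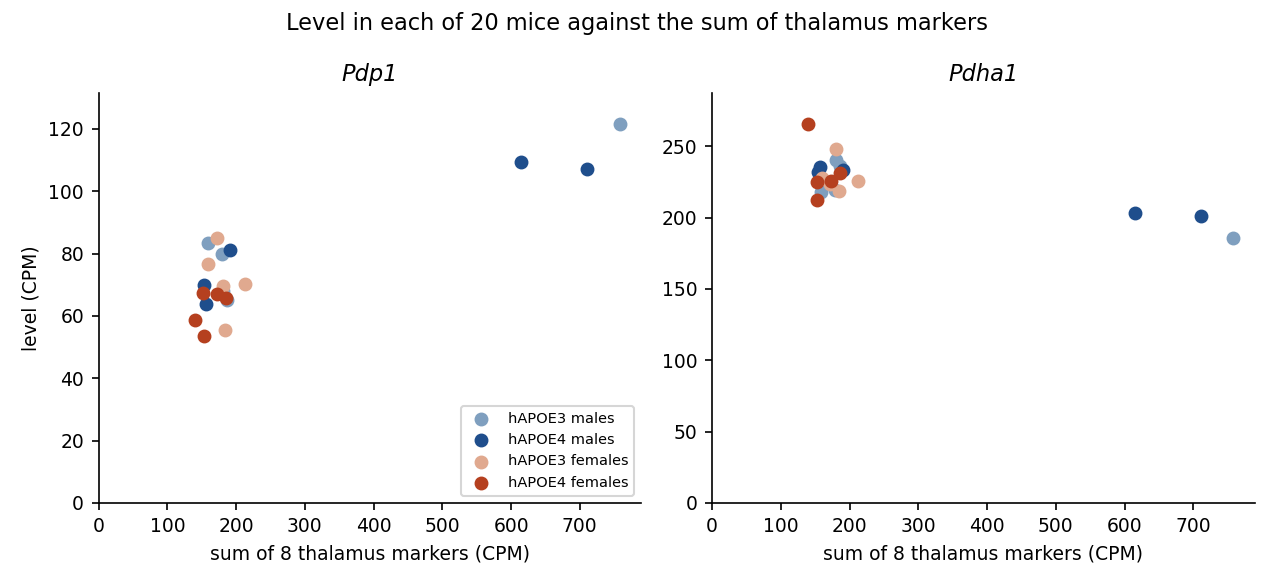
Level in CPM of Pdp1 (left) and Pdha1 (right) in each of 20 mice against the summed CPM of 8 thalamus markers. Mice S158, S176 and S178, at 615 to 759 CPM of markers, have the 3 highest Pdp1 levels and the 3 lowest Pdha1 levels.

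Pdp1 was the single member whose 3 highest levels were those of S158, S176 and S178, and Pdha1, at 186, 201 and 204 CPM, the single member whose 3 lowest were. That is 3.03% of the members each, beside 3.65% and 2.93% of all genes tested. Pdk1, a kinase, was higher in hAPOE4 females than males by 0.28 ± 0.11 (adjusted p = 0.589) and by 0.20 ± 0.08 over both genotypes (adjusted p = 0.359 by edgeR). Without S176, the lowest male, the value in hAPOE4 mice was 0.19. Over both genotypes 0 of 33 members were called by edgeR, DESeq2 and limma, where 0.129% of all genes were called by edgeR, and 2 of 33 (Pdp1 and Pdk1) had an unadjusted p under 0.05, against 10.0% of all genes.

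Idh1, the cytosolic NADP-dependent isocitrate dehydrogenase, and Ogdhl, a brain form of oxoglutarate dehydrogenase, came next in hAPOE4 mice, with 0.14 ± 0.10 and -0.18 ± 0.13 (adjusted p = 1.00 for both). The value of Ogdhl rested on the male S176, at 167.6 CPM against 96.9 to 105 CPM in the other 4 males, and was 0.0019 without it. Without S158, S176 and S178 Ogdhl gave 0.041 and Idh1 0.09. For females against males over both genotypes, Ogdhl and Pcx followed Pdp1 and Pdk1 by p. Ogdhl gave -0.19 and Pcx -0.19 (adjusted p = 0.509 and 0.523 by edgeR). Without S176 these values were -0.10 and -0.11, and without S158, S176 and S178 they were -0.05 and -0.07.

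Whether the allele acted differently in the sexes was tested as an interaction. By edgeR 0 of 33 members were called, where 0.184% of all genes were, and 0 of 33 had an unadjusted p under 0.05, against 2.54% of all genes. DESeq2 and limma also called 0. The estimates of 30 of 33 members were above 0, against 49.8% of all genes, with a median of 0.06 beside -0.0012 over all genes. But the 33 genes were measured in the same libraries and are not separate replicates. The hAPOE3 females also enter the genotype comparison in females and the sex comparison in hAPOE3 mice. The counts of directions in these comparisons are therefore not independent. Idh3g (0.23 ± 0.15), Mdh2 (0.22 ± 0.20), Suclg1 (0.21 ± 0.18) and Mdh1 (0.17 ± 0.14) had the smallest p, each with an adjusted p of 1.00. Mdh1 gave 0.09 without S156, and Suclg1 gave 0.33 without S148. Over 32 alternative fits Idh3g ran from 0.10 to 0.29 and Mdh2 from 0.05 to 0.32. Suclg1 ran from 0.07 to 0.33 and Mdh1 from 0.08 to 0.23. Idh3g, Mdh2, Suclg1 and Mdh1 are among the genes of the order of hAPOE3 mice described next.

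The spread of several members among hAPOE3 mice followed one order of mice. For Mdh2 the levels were 207, 215, 312, 305 and 287 CPM in hAPOE3 males and 189, 192, 177.99, 284 and 282 CPM in hAPOE3 females. The 5 high mice were S156, S157 and S158 among males and S147 and S148 among females, and the other 5 lay well below. In hAPOE4 mice Mdh2 was at 257, 256, 226, 226 and 253 CPM in males and 222, 249, 261, 207 and 264 CPM in females. Of these, 9 lay between the high and the low hAPOE3 mice, and S167 lay among the low ones.

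The same 5 mice were the 5 highest of the 10 hAPOE3 mice for 11 of 33 members. These were both carrier genes (Mpc1 and Mpc2), Pdhb of pyruvate dehydrogenase, Idh2, Idh3b and Idh3g of the isocitrate step, Dlst and Suclg1 of the succinyl-CoA steps, and Fh1, Mdh1 and Mdh2. For Suclg1 their levels were 97.9 to 108 CPM against 67.0 to 83.4 CPM in the other 5 hAPOE3 mice, with hAPOE4 mice at 82.6 to 97.5. For Mdh1 they were 542 to 714 against 477 to 521 CPM. Citrate synthase did not follow this order, at 222 to 239 against 203 to 231 CPM, nor did Dld, at 92.8 to 144.6 against 121 to 128 CPM.

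The order was that of the nuclear genes of oxidative phosphorylation, a list of 56 genes whose mean centred log2 level was 0.27 to 0.41 in these 5 mice, -0.30 to -0.13 in the other 5 hAPOE3 mice and -0.16 to 0.05 in the hAPOE4 mice. Outside that list, the 5 mice were the 5 highest for 10.6% and the 5 lowest for 10.7% of 21668 genes, against 33.3% and 0% of the members. No test was made, since the mice were ordered by the data, and the order is not one of the study's groups. The summed astrocyte markers were at 3022 to 3696 CPM in the 5 mice and 4489 to 5218 CPM in the other 5. As a score, in which each marker counts alike, the same markers overlapped, at -0.26 to -0.02 and -0.04 to 0.08. Total counts ran from 40388894 to 52520279 and from 35778879 to 41707676. The part of cell composition or depth in this order was not tested.

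**Figure D5:**
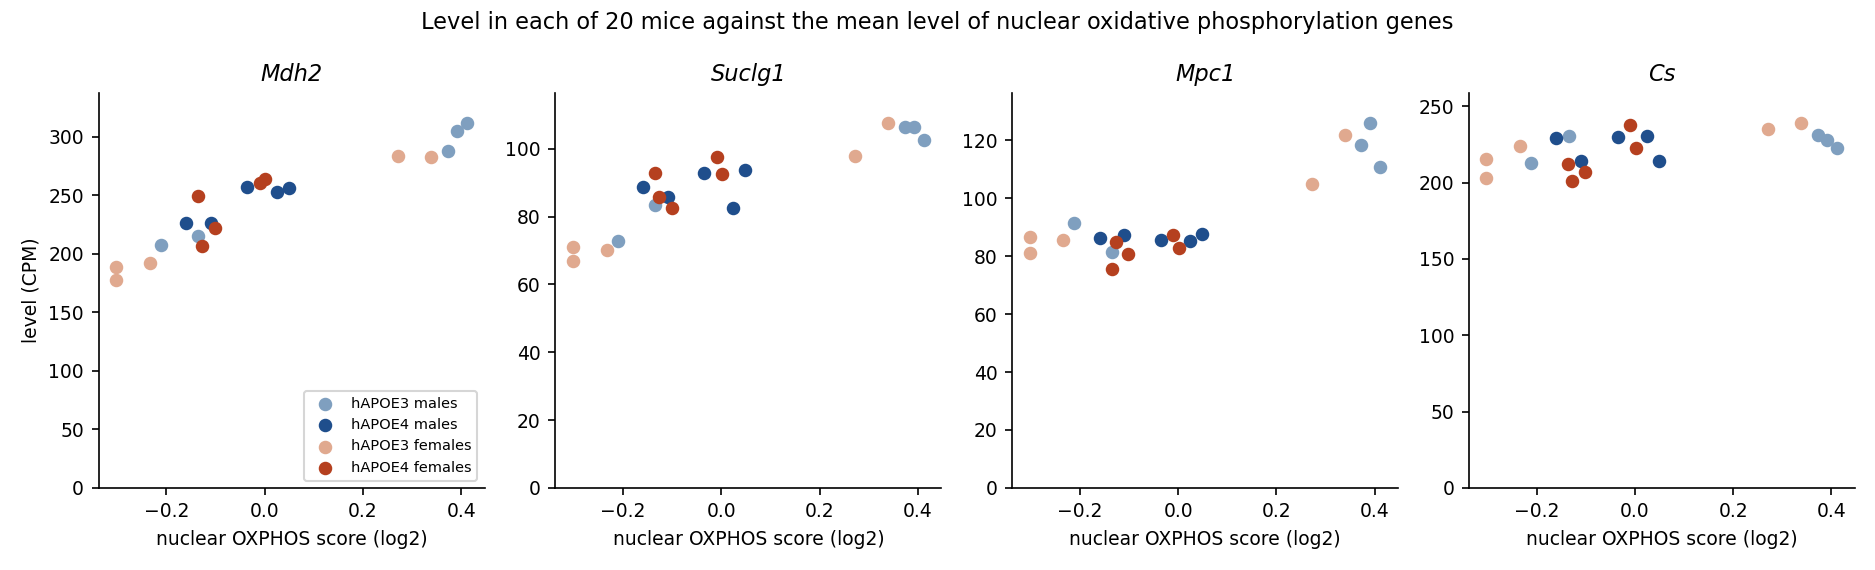
Level in CPM of Mdh2, Suclg1, Mpc1 and Cs in each of 20 mice against the nuclear oxidative phosphorylation score (mean centred log2 CPM). For Mdh2, Suclg1 and Mpc1 the 5 hAPOE3 mice at 0.27 or above lie over the other 5 hAPOE3 mice, and for Cs the 10 hAPOE3 mice overlap at 203 to 239 CPM.

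The genes around the cycle were counted in 4 lists: complex II and its assembly (8 genes), lipoylation and thiamine cofactors (9), carriers and shuttles (10), and exits and entries of the cycle (11). By edgeR 0 of these 38 genes were called in any of the 7 comparisons, where 0.0414% to 2.45% of all genes were. Sdha, the flavoprotein subunit of complex II, came closest, with a log2 fold change of hAPOE4 against hAPOE3 of 0.23 ± 0.07 in females, where the groups did not overlap, and 0.18 ± 0.05 over both sexes (adjusted p = 0.194 and 0.0677 by edgeR). In females the groups did not overlap for 1 of the 38 genes, Sdha, against 3.27% of all genes. DESeq2 called 1 of 38 in females and over both sexes, Sdha each time (adjusted p = 0.0260 and 0.00564). Of all 21724 genes DESeq2 called 345 in females and 1086 over both sexes. The gene with the smallest p of each other list over both sexes was Nfu1, an iron-sulfur cluster carrier needed for lipoylation, at -0.24 ± 0.08 (adjusted p = 0.103), Slc25a12, the neuronal aspartate-glutamate carrier, at 0.11 ± 0.05 (adjusted p = 0.236), and Pcca, a subunit of propionyl-CoA carboxylase, at 0.16 ± 0.07 (adjusted p = 0.239 by edgeR). Of the same 38 genes, 14 had their 5 highest hAPOE3 levels in S147, S148, S156, S157 and S158, among them Sdhb, Sdhc and Sdhd, the malate-aspartate shuttle genes Got1, Got2 and Slc25a11, and Ldhb. Aldh5a1, which ends the breakdown of GABA, was the 1 gene with its 5 lowest levels there.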

How the data were processed

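PolyA RNA of the hippocampus of 20 mice was sequenced in paired-end reads, and the authors assigned reads to mouse transcripts with Salmon (version 0.91) and summed them per gene with tximport. The deposited table holds their estimated counts as whole numbers, without normalization. The other deposited table is a signal, the counts as normalized by the authors with DESeq2. It does not differ from the counts by 1 factor per library alone, since ratios between genes changed. The log2 ratio of Mpc1 to Mpc2 in hAPOE3 females was 0.69 in the counts and 0.58 there. The edgeR fit used 1 factor per library and no factors per gene. All sample columns were matched by name, and 0 were left out. Whether counting used strand, and how the mice were housed or shared litters, is not given in the sources used here. Besides Mpc1, exon bases also lay opposite exons of another gene in Pdha1 (603 bases), Me3 (391), Me1 (30) and Idh3b (5).

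Counts were filtered with filterByExpr by group, scaled by TMM and fitted in edgeR 4.0.16 (R 4.3.3) with one mean per group over all 20 mice. Levels are CPM on TMM library sizes. Alternatives used DESeq2 1.42.0, and limma 3.58.1 on log2(deposited normalized count + 1), other scalings, filters, covariates, and fits without 1 mouse each. Scores are means of centred log2 CPM (prior count 2). The edgeR steps were tested on simulated data. Exon lengths and gene positions come from GENCODE M21 (GRCm38), promoters from RefSeq.

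The members and lists were chosen with earlier results of these data known. Values are given in each comparison for members with an adjusted p under 0.05, or otherwise the 4 with the smallest p, and in the 4 surrounding lists for the gene with the smallest p where none passed. Ogdh, Mpc1 and Me2 over both sexes, and the genes of the order of hAPOE3 mice, were added after their values were seen. No 2 libraries agreed within sampling noise, since the lowest chi-square per degree of freedom among 190 pairs was 9.16. Counting error is small at this depth, and p-values measure the spread between mice.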

Additional observations from a re-analysis of the deposited data

Results flagged for a closer look

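Among 132 sets of 5 mice (33 members in 4 groups), 9 held a mouse whose gap to its nearest neighbour took more of the range than Dixon's 95% value for 5 samples (0.71) allows. Chance flags about 1 set in 20, or 6.6 of 132. The hAPOE4 male S176 gave 5 of the 9. It was low for the kinase gene Pdk1, at 42.4 CPM against 59.8 to 66.6 CPM in the other 4 males, and low for the malic enzyme Me3, at 36.4 against 50.5 to 56.0 CPM. It was high for Pcx, at 103 against 63.0 to 68.1 CPM, for Aco1, the cytosolic aconitase, at 34.2 against 25.7 to 27.5 CPM, and for Ogdhl, at 167.6 against 96.9 to 105 CPM. S176 is 1 of the 3 mice with the highest thalamus sums (711 CPM), and its oligodendrocyte markers summed to 9901 CPM against 4799 to 6653 CPM in the other 4. The part of either in these values was not tested.

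The hAPOE4 male S178 was low for Pdk3, at 18.1 against 22.9 to 25.1 CPM. The hAPOE4 female S166 was high for Pdhx, at 43.8 against 39.5 to 40.4 CPM, and for Me1, at 75.2 against 58.9 to 62.6 CPM. The hAPOE3 female S147 was low for Dlat, the acetyltransferase of pyruvate dehydrogenase, at 88.5 against 102 to 103 CPM.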

How the results depend on the processing

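The call of Pdk4 in hAPOE4 against hAPOE3 over both sexes was kept when each of the 20 mice was left out in turn (log2 fold change 0.77 to 0.95, adjusted p 0.00523 to 0.0341 by edgeR, the highest without S157), and with DESeq2, RLE scaling, no filter on low counts, without the mitochondrial encoded genes, with limma on the deposited normalized counts and with the choroid plexus covariate. The count of members called there was 1, ran from 1 to 2 over the fits without 1 mouse (2 without S144 or S155), was 2 with DESeq2 (Pdk4 and Ogdh), and was 0 with the oocyte or the astrocyte covariate. In males it was 0, and 1 with DESeq2. Over all genes tested, edgeR called 532 over both sexes and 135 in males (and 0.667% in females), DESeq2 called 1086, 232 and, in females, 345, and over both sexes edgeR called 74 with the oocyte and 122 with the astrocyte covariate. Of the 38 surrounding genes DESeq2 called 1 in females and 1 over both sexes, against 0 with edgeR. The sex difference of Ogdhl in hAPOE4 mice turned from -0.18 to 0.0019 without S176 (-0.23 to 0.0019 over the fits without 1 mouse) and to 0.041 without S158, S176 and S178. The astrocyte, endothelium, thalamus and oxidative phosphorylation covariates and the fit without these 3 mice were chosen after seeing the data. The log2 ratio of Mpc1 to Mpc2 in hAPOE3 females was 0.69, and 0.58 in the deposited normalized counts. For the rest, 963 values of single genes or ratios and 455 counts and medians were kept. They held their direction and their side of the threshold, or moved by less than the spread. For the medians this is a weak check. The members' median for hAPOE4 against hAPOE3 over both sexes was 0.029. The SD of the mean level of all members was 0.042 to 0.075 within a group. A median of that size could reverse and still be counted as kept. A count of members called that stayed at 0 was also counted. So was a gene that stayed uncalled in the same direction, whatever the change in its size. Neither 963 nor 455 therefore measures robustness. No paired analysis was possible because the labels number the mice singly and give no pairs across groups. Within 1 sex the SE of a member's log2 fold change ran from 0.07 (Cs) to 0.26 (Pdk4), which limits the differences that 5 mice a group can show.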

Other observations

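The spread between mice was set side by side in the genotypes. On the log2 scale the SD was wider in hAPOE3 than in hAPOE4 mice for 21 of 33 members in males and 20 of 33 in females, beside 55% and 65.6% of all genes tested. For Mpc1, which is among the genes of the order of hAPOE3 mice, the SD in males was 18.6 CPM in hAPOE3 and 1.05 CPM in hAPOE4 mice. In females it was 17.1 CPM in hAPOE3 and 4.48 CPM in hAPOE4 mice.

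The mean of the centred log2 levels of all 33 members was 0.0022 ± 0.075 with hAPOE3 and 0.03 ± 0.042 with hAPOE4 in males, and -0.06 ± 0.049 and 0.03 ± 0.072 in females (SD, n = 5). The ranges of the 4 groups overlapped.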
